A study of Homo sapiens with 12 samples.

Results

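MYC and 9 partners of its MAX network (MAX, MXD1, MXD3, MXD4, MXI1, MNT, MLX, MGA and MLXIP) were followed through every probe set that names them, 30 of the 54675 probe sets on the array. The 10 genes were chosen by name, with earlier results of these data known. For 9 of them a probe set named the gene alone, and these were tested among 19775 genes. The 3 probe sets that name MXD4 also name MIR4800, a miRNA gene, so they were described as probe sets and credited to neither gene. RNA came from Rec-1, SP-49 and Mino, human cell lines of mantle cell lymphoma, which is a cancer of B cells, and each line was grown both with and without a gamma-secretase inhibitor. The GSI groups had 24 h with 1 µM compound E, which blocks the cut that releases the active part of Notch receptors. The Mock groups had 0.1% DMSO alone for the same time. Each of the 6 groups had 2 arrays, and serum went with the line, at 10% for Rec-1 and SP-49 and 15% for Mino. Whether the 2 arrays of a group came from separate cultures is not given in the sources used here, so p-values measure a spread that may be technical.

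MYC is a transcription factor of cell growth and division that binds E-box DNA only as a pair with MAX. MAX also pairs with the MXD proteins, MXI1, MNT and MGA, which bind the same DNA and mostly repress, so that MYC and its antagonists compete for 1 partner. MLX is a MAX-like protein that pairs with MLXIP (MondoA), a sensor of glucose use, and with some of the repressors. In T-cell leukaemia with active Notch, MYC is a direct target of Notch, which makes it a gene of interest when gamma-secretase is blocked.

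All values are deposited log2 levels, and a difference of 1 is a factor of 2. Their median over all arrays was 1.99, levels near or below it are dominated by background, and 26 of the 30 probe sets had a highest group mean above it. Arrays of a group correlated with r from 0.984 to 0.995, arrays of 1 line with different treatment from 0.979 to 0.993, and arrays of different lines from 0.932 to 0.953. B-cell markers were above the median in every group for 5 of 5 measured genes, and so were CCND1, SOX11 and CD5, markers of mantle cell lymphoma. CD5 was low in Rec-1 (2.60 with GSI, 2.40 with Mock) and SP-49 (2.74 and 2.73) and higher in Mino (4.02 and 4.37). Of the lists for other cells, genes above the median in every group numbered 0 of 5 for myeloid cells, 1 of 5 for T cells (CD3D), 2 of 4 for NK cells, 2 of 5 for stroma, 1 of 5 for epithelium (KRT8) and 2 of 3 for red cells. The highest group means of the myeloid, NK and red-cell lists were 2.09, 2.65 and 2.58, and that of the stroma list was 3.60. Those of the T-cell and epithelial lists were 4.80 (CD3D, Rec-1 Mock) and 4.14 (EPCAM, Mino GSI), and CDH1 reached 3.56 in SP-49 Mock. The difference between the 3′ and 5′ GAPDH controls, which follows RNA quality, was 0.59 and 0.49 on GSI arrays of Rec-1, above the 0.41 and 0.37 on its Mock arrays. In Mino it was 0.31 and 0.39 with GSI and 0.26 and 0.25 with Mock, and in SP-49 it was 0.35 and 0.44 with GSI and 0.35 and 0.34 with Mock.

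The promoters show where the network's own binding letters lie in its members. RefSeq windows (GRCh38.p14, 250 bases before to 50 after a start) were matched for the 9 members other than MYC, 14 windows in all. The promoter of MYC was not searched. The E-box CACGTG, which reads the same on both strands, occurred in 3 of the 14 windows, 1 each of MXD4, MNT and MLX, and in 7.26% of 35116 windows of this length over all genes. These stretches are shown because they carry the letters that MYC and MAX pairs prefer, in capitals. The whole window of MXD3, the member whose level rose, is shown beside them. It held no CACGTG, and its capitals mark 2 matches to CANNTG, a general E-box that includes CACGTG and occurred in 68.7% of all windows. The core TGGGAA of the Notch partner RBPJ, searched on both strands, occurred in 2 of the 14 windows, 1 each of MXI1 and MGA, and in 24.0% of all windows. A match describes the letters of a window and not binding.
MXD4 (chr4:2262307-2262359, minus strand): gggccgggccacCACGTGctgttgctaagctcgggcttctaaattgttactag
MNT (chr17:2401213-2401288, minus strand): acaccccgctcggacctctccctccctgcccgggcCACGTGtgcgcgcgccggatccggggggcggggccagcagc
MLX (chr17:42567015-42567090, plus strand): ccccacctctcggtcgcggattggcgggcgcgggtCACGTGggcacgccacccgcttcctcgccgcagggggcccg
MXD3 (chr5:177312703-177313002, minus strand): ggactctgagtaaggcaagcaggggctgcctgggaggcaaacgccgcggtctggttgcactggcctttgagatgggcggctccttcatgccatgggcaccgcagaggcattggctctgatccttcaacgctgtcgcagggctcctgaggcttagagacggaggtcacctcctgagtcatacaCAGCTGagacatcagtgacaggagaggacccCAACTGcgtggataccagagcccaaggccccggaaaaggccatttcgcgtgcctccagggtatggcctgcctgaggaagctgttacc

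MYC fell under the inhibitor in Rec-1 and SP-49, by nearly the same amount, and was not changed past the threshold in Mino. Its single probe set read 7.12 and 6.52 on the GSI arrays of Rec-1, against 8.32 and 8.38 on the Mock arrays. It read 5.79 and 5.75 with GSI in SP-49, against 7.33 and 7.31 with Mock. In both lines each GSI array lay below each Mock array, and the 2 GSI arrays of Rec-1 were further apart than any other pair. In Mino the values were 9.86 and 10.04 with GSI and 9.92 and 9.72 with Mock, and the groups overlapped.

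MYC averaged 6.82 ± 0.42 with GSI and 8.35 ± 0.04 with Mock in Rec-1, and 5.77 ± 0.03 with GSI and 7.32 ± 0.01 with Mock in SP-49 (SD, n = 2 each). The change of MYC was -1.53 in Rec-1 (95% interval -1.92 to -1.15, adjusted p = 0.000754), which is 2.90-fold lower with GSI. It was -1.55 in SP-49 (-1.94 to -1.16, adjusted p = 0.00565), 2.93-fold lower. In Mino it was 0.13 (-0.25 to 0.52, adjusted p = 1.00), and a fall of the size seen in the other lines lies outside this interval. P-values are from limma, two-sided and adjusted over the 19775 genes of a comparison by the Benjamini-Hochberg method, with a threshold of 0.05. Ordered from the largest fall, MYC stood 30th of 19775 genes in Rec-1 and 10th in SP-49. Less RNA per cell and fewer cells with the RNA cannot be told apart in bulk samples. The SP-49 call ended when SP-49 GSI replicate 2, Mock replicate 1 or Mock replicate 2 was left out (adjusted p = 0.0885, 0.0880 and 0.0814, range over 22 alternatives 5.1e-07 to 0.0885), and the Rec-1 call ended when Rec-1 arrays were fitted alone (0.0805, range 1.35e-07 to 0.0805).

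**Figure D1:**
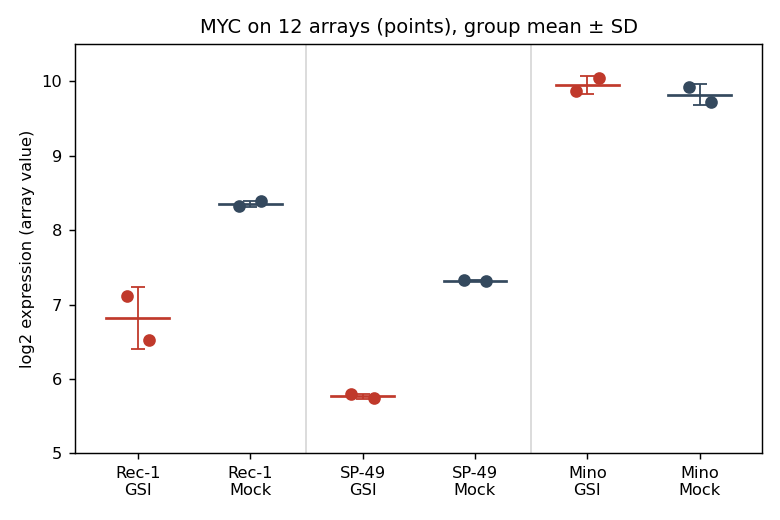
Log2 level of MYC (y axis) on each of the 12 arrays (points), with the group mean (line) and SD (bars, n = 2), GSI in red and Mock in blue for each line. GSI arrays of Rec-1 and SP-49 lie at 5.75 to 7.12, below their Mock arrays at 7.31 to 8.38, and all 4 Mino arrays lie at 9.72 or above.

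Whether MYC responded differently between lines was tested on the difference of the changes. Rec-1 minus Mino gave -1.67 (-2.22 to -1.12, adjusted p = 0.0117), past the threshold that 1.43% of all genes passed in this comparison. SP-49 minus Mino gave almost the same size, -1.68 (-2.23 to -1.14, adjusted p = 0.0564), which missed the threshold in a comparison where 0.0455% of genes passed. Rec-1 minus SP-49 gave 0.02 (-0.53 to 0.56, adjusted p = 0.991), where 0.556% of genes passed. The 3 differences share arrays and are not independent. The Rec-1 minus Mino call ended in 4 of the 12 fits without 1 array and with only the arrays compared (adjusted p up to 0.0626), and the SP-49 minus Mino difference passed in 8 of 22 alternatives (adjusted p from 6.4e-05 to 0.356).

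Without inhibitor, MYC differed widely between the lines. The Mock means were 8.35 ± 0.04 in Rec-1, 7.32 ± 0.01 in SP-49 and 9.82 ± 0.14 in Mino (SD, n = 2 each). Rec-1 stood below Mino by a difference of -1.46 (adjusted p = 7.2e-05), SP-49 below Mino by -2.50 (5.64-fold, adjusted p = 1.1e-06), and Rec-1 above SP-49 by 1.03 (2.04-fold, adjusted p = 0.00078). These 3 calls held in all 22 alternatives, and serum and line cannot be told apart in the comparisons with Mino. Over all 6 groups the order from high to low was Mino GSI, Mino Mock, Rec-1 Mock, SP-49 Mock, Rec-1 GSI and SP-49 GSI. The first 2 of these overlapped and all later neighbours were separate, with the smallest gap, 0.20, between SP-49 Mock and Rec-1 GSI.

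MXD3, a MAX partner that represses and is known from dividing cells, rose with GSI in Rec-1. Its single probe set read 6.13 and 6.34 with GSI in Rec-1, against 5.17 and 5.21 with Mock. In SP-49 it read 4.80 and 4.46 with GSI, against 4.25 and 4.44 with Mock. In Mino it read 4.65 and 4.49 with GSI, against 4.41 and 4.34 with Mock. The GSI arrays stood above the Mock arrays in all 3 lines, widely in Rec-1 and narrowly in the others. The change in Rec-1 was 1.05 (0.72 to 1.37, adjusted p = 0.00244), a 2.06-fold higher level, and MXD3 stood 89th of 19775 genes from the largest rise. In SP-49 it was 0.29 (adjusted p = 0.654) and in Mino 0.20 (adjusted p = 1.00). The difference between changes did not pass, at 0.85 for Rec-1 minus Mino (0.38 to 1.31, adjusted p = 0.0813) and 0.76 for Rec-1 minus SP-49 (0.30 to 1.22, adjusted p = 0.190). The rise in Rec-1 lost its call only with Rec-1 arrays alone (adjusted p = 0.0789), and the difference from Mino gained one without Rec-1 GSI replicate 1 (0.0409) and with quantile normalization (0.0449), of 22 alternatives (0.0409 to 0.232).

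MXD3 was also the only tested member with its highest Mock mean in Rec-1. Its Mock mean was 5.19 ± 0.02 in Rec-1, 4.34 ± 0.13 in SP-49 and 4.37 ± 0.05 in Mino (SD, n = 2 each). Rec-1 was higher than Mino by 0.82 (adjusted p = 0.00146) and higher than SP-49 by 0.85 (adjusted p = 0.000956), while SP-49 minus Mino was -0.03 (adjusted p = 0.930). MYC and MXD3 thus had different orders of the lines, with Mino highest for MYC and Rec-1 highest for MXD3.

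MXI1, another MAX partner that recruits corepressors, did not pass the threshold under GSI in any line. Its single probe set read 4.26 and 3.33 with GSI in Rec-1, against 4.66 and 4.23 with Mock. It read 5.27 and 4.65 with GSI in SP-49, against 5.36 and 5.44 with Mock. In Mino it read 7.48 and 7.35 with GSI, against 7.25 and 7.32 with Mock. The GSI and Mock arrays overlapped in Rec-1, GSI was lower in SP-49 and slightly higher in Mino, and the GSI arrays of Rec-1 and SP-49 were further apart than their Mock arrays. The changes were -0.65 in Rec-1 (-1.25 to -0.04, adjusted p = 0.226), -0.44 in SP-49 (adjusted p = 0.741) and 0.13 in Mino (adjusted p = 1.00). Without Rec-1 GSI replicate 1 the change in Rec-1 was -1.11 (adjusted p = 0.0167, range over 22 alternatives 0.0167 to 0.801), and without Rec-1 GSI replicate 2 it was -0.18 (adjusted p = 0.801).

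Between lines, MXI1 had the largest difference of Mock means among the tested members, with Mino highest, SP-49 next and Rec-1 lowest, and no overlap of the Mock arrays. Rec-1 minus Mino was -2.84 (7.17-fold, adjusted p = 1.4e-05) and SP-49 minus Mino was -1.89 (3.70-fold, adjusted p = 0.000309). Rec-1 minus SP-49 was -0.95 (adjusted p = 0.0214), and this call ended without Rec-1 Mock replicate 2 (0.164), SP-49 Mock replicate 1 (0.0800) or SP-49 Mock replicate 2 (0.108), with a range of 0.000743 to 0.164 over 22 alternatives.

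MAX itself changed little with GSI. The brightest of its 5 probe sets read 7.35 and 7.13 with GSI in Rec-1, against 7.46 and 7.32 with Mock. It read 6.78 and 6.58 with GSI in SP-49, against 6.79 and 6.83 with Mock. In Mino it read 7.42 and 7.51 with GSI, against 7.58 and 7.64 with Mock. GSI arrays were below Mock arrays in SP-49 and Mino, by little, and overlapped in Rec-1. The changes were -0.15 (-0.44 to 0.14), -0.13 (-0.42 to 0.16) and -0.14 (-0.43 to 0.15) in Rec-1, SP-49 and Mino, none past the threshold, and falls of the size of MYC lie outside these intervals. The other 4 probe sets changed by -0.28 to 0.08 over the 3 lines.

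Between lines, MAX was lowest in SP-49. SP-49 minus Mino was -0.80 (-1.09 to -0.51, adjusted p = 0.000759) and Rec-1 minus SP-49 was 0.58 (0.29 to 0.87, adjusted p = 0.00551), while Rec-1 minus Mino was -0.22 (adjusted p = 0.293). The order Mino, Rec-1, SP-49, which MYC also had, was seen in 4 of the 5 MAX probe sets, and 3 of 5 passed in SP-49 minus Mino. The Rec-1 minus SP-49 call ended with the mean of the probe sets, at 0.27 (adjusted p = 0.0508), and without Rec-1 Mock replicate 1 (0.0506), within a range of 0.00035 to 0.0508 over 22 alternatives.

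**Figure D2:**
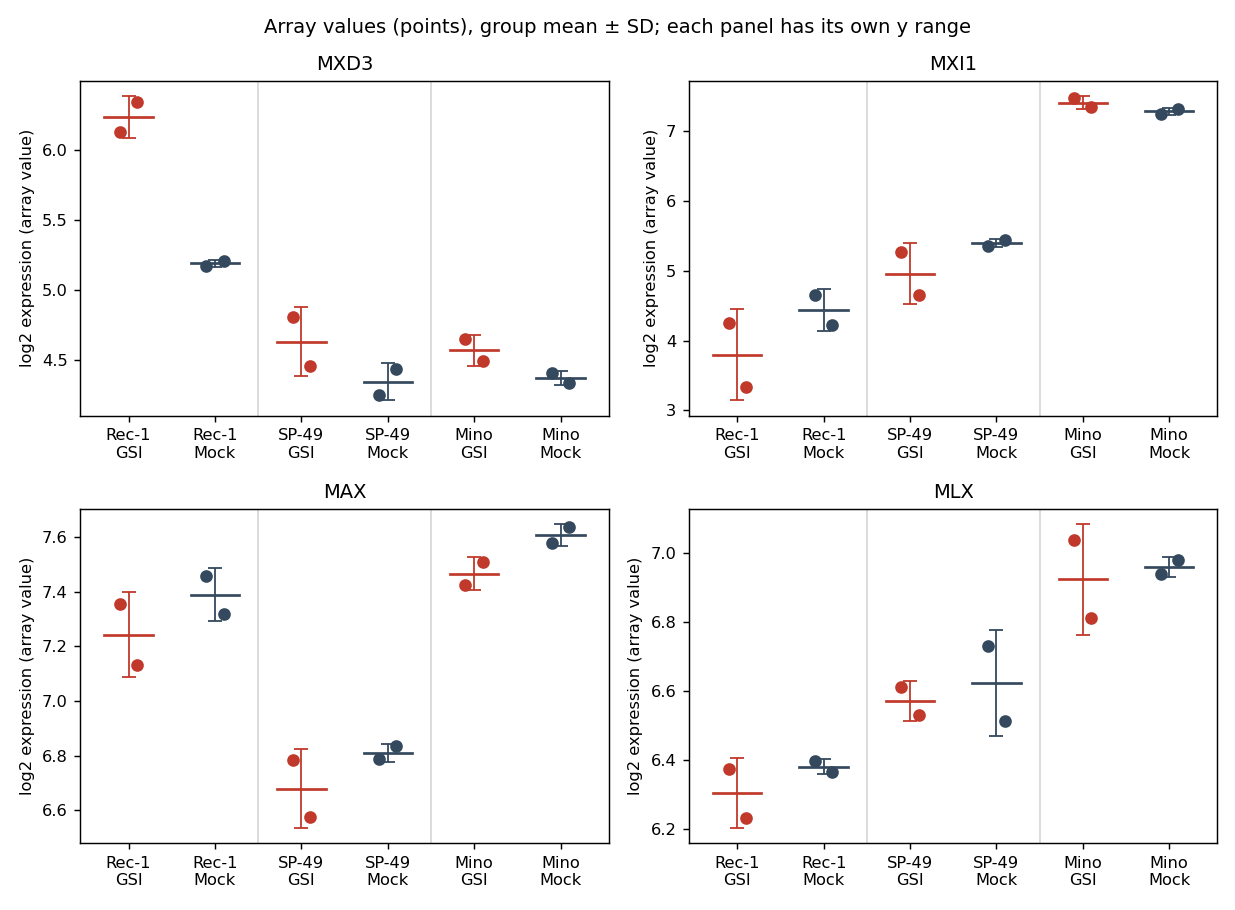
Log2 level (y axis, with its own range in each panel) of MXD3, MXI1, MAX and MLX on the 12 arrays (points), with group mean and SD (n = 2), GSI in red and Mock in blue for each line. MXD3 stands out on the GSI arrays of Rec-1 (6.13 and 6.34), MXI1 is highest in Mino (7.25 to 7.48) and MAX lowest in SP-49 (6.58 to 6.83).

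MLX and MLXIP, the glucose-linked arm of the network, did not pass the threshold under GSI in any line. The brightest of the 6 MLX probe sets read 6.38 and 6.23 with GSI in Rec-1, against 6.40 and 6.37 with Mock. It read 6.61 and 6.53 with GSI in SP-49, against 6.73 and 6.51 with Mock, and 7.04 and 6.81 with GSI in Mino, against 6.94 and 6.98 with Mock. The groups overlapped in every line. The changes were -0.08, -0.05 and -0.04 in Rec-1, SP-49 and Mino. MLX was lower in Rec-1 than in Mino without inhibitor, by -0.58 (-0.87 to -0.29, adjusted p = 0.00646), and 3 of its 6 probe sets passed. SP-49 minus Mino was -0.34 (adjusted p = 0.0917).

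MLXIP changed by 0.05 in Rec-1, -0.22 in SP-49 and -0.09 in Mino on its brightest probe set. That probe set read 4.75 and 4.80 with GSI in Rec-1 against 4.69 and 4.76 with Mock, 4.49 and 4.27 with GSI in SP-49 against 4.57 and 4.62 with Mock, and 4.36 and 4.92 with GSI in Mino against 4.72 and 4.74 with Mock. GSI arrays were below Mock arrays in SP-49, and the groups overlapped in the other lines. The Mock means of that probe set differed by at most 0.13, and no comparison of them passed. Another MLXIP probe set, with a highest group mean of 3.26, had Mock means up to 0.51 apart. It changed by -0.36 with GSI in Rec-1, and none of its differences passed. A dim MLXIP probe set passed in Rec-1 minus Mino (-0.41, adjusted p = 0.0385 over all probe sets) and SP-49 minus Mino (-0.40, adjusted p = 0.0435), but its highest group mean, 1.80, was below the median of the array.

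MNT and MGA, repressors that pair with MAX, and MXD1, a repressor known from differentiating cells, gave no call in any comparison. MNT changed by -0.18 in Rec-1, 0.02 in SP-49 and 0.18 in Mino, with overlapping arrays in every line. Its arrays ran from 4.69 to 5.58 over all groups. MGA, the largest protein of the network and a part of the repressive complex PRC1.6, changed by -0.12 in Rec-1, -0.36 in SP-49 (-0.73 to 0.01, adjusted p = 0.576) and 0.06 in Mino. It read 4.68 and 4.35 with GSI in SP-49, against 4.95 and 4.79 with Mock, so the GSI arrays were the lower ones there. All 4 MGA probe sets had negative changes in SP-49, and 3 of 4 did in Rec-1. Of these the furthest was -0.66 in Rec-1 (adjusted p = 0.284 over all probe sets). MXD1 changed by -0.15, 0.03 and -0.17 in Rec-1, SP-49 and Mino, on arrays that ran from 2.49 to 3.60. Its Mock level was lower in Rec-1 than in Mino by a difference of -0.47 (adjusted p = 0.138), which passed in 3 of 22 alternatives (0.0409 to 0.773).

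The 3 probe sets of MXD4 and MIR4800 changed by -0.28 to 0.30 in Rec-1, -0.17 to 0.26 in SP-49 and -0.10 to 0.33 in Mino, and none passed. They ran from 1.96 to 3.80 over all arrays, and in the Mock arrays all 3 had the order Mino, SP-49, Rec-1. No Mock comparison of them passed (smallest adjusted p = 0.0942).

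**Figure D3:**
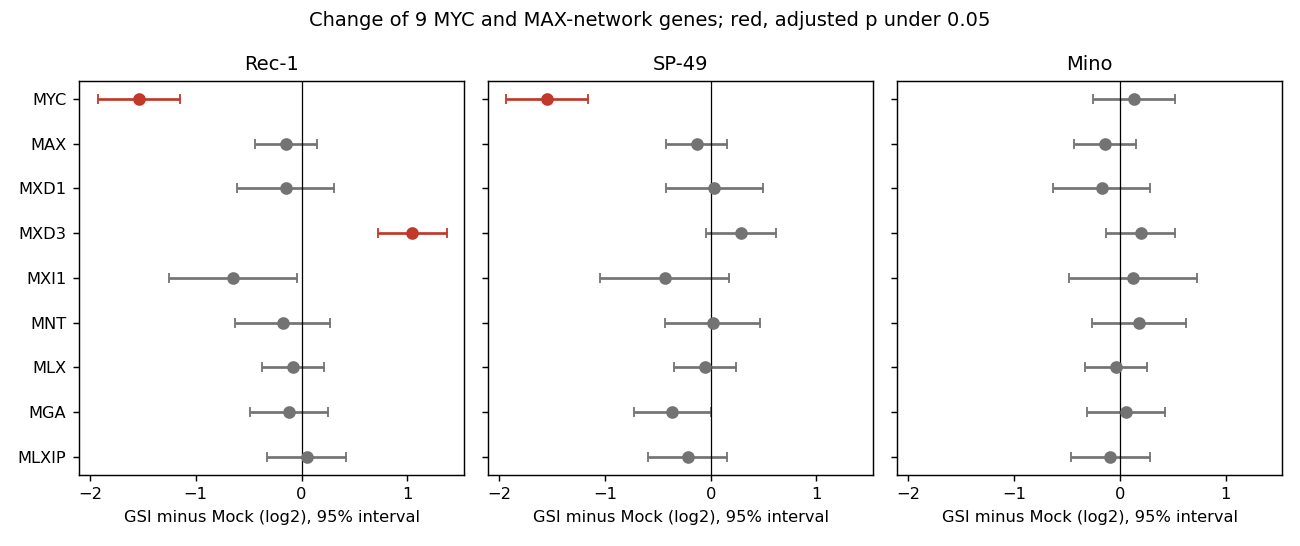
Change with GSI (x axis, GSI minus Mock, log2) of the 9 tested members (rows) in each line, as estimate and 95% interval of limma, red where the adjusted p was under 0.05. MYC lies at -1.53 in Rec-1 and -1.55 in SP-49, MXD3 at 1.05 in Rec-1, and no member passes in Mino.

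Counted over the network, GSI changed 2 of 9 members in Rec-1, MYC downward and MXD3 upward, where 5.77% of all genes passed (2.15% higher, 3.62% lower). In SP-49 it changed 1 of 9, MYC downward, where 0.192% of genes passed (0.172% lower). In Mino 0 of 9 passed by limma, 0 of 9 had an unadjusted p under 0.05, and 0% of all genes passed, while 969 genes had an unadjusted p under 0.05 and 1 gene passed with an intensity trend and a robust prior. The median change of the 9 members was -0.15, -0.13 and 0.06 in Rec-1, SP-49 and Mino, beside 0.012, -0.019 and -0.0036 over all genes. Of the 30 probe sets, 2 passed in Rec-1 (3.13% of all probe sets), 1 in SP-49 (0.0494%) and 0 in Mino (0%). GSI and Mock arrays did not overlap for 2 of 9 members in Rec-1 (45.3% of all genes), 6 of 9 in SP-49 (42.5%) and 3 of 9 in Mino (33.1%). The members' share was below that of all genes in Rec-1, near it in Mino and above it in SP-49, and was not tested. The balance of all calls in Rec-1 depended on scaling, with 426 genes higher and 715 lower as deposited, and 657 higher and 600 lower after a further quantile normalization, which kept the calls of MYC and MXD3.

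**Figure D4:**
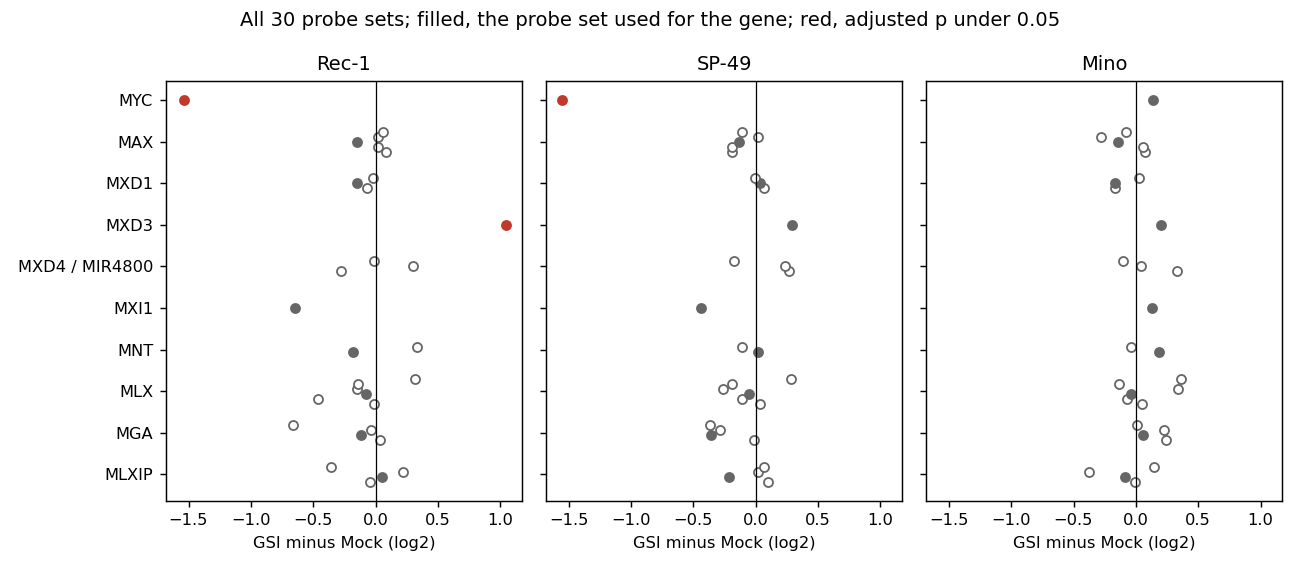
Change with GSI (x axis, GSI minus Mock, log2) of all 30 probe sets, a row for each member, in each line. Filled points are the probe set used for the gene and red marks an adjusted p under 0.05 over all probe sets. Apart from MYC and MXD3, points lie between -0.66 and 0.36 and those of 1 gene often fall on both sides of 0.

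Between lines without inhibitor, 4 of 9 members differed for Rec-1 against Mino (MYC, MXI1 and MLX lower in Rec-1, MXD3 higher), where 26.1% of all genes passed. For SP-49 against Mino 3 of 9 differed (MYC, MAX and MXI1, all lower in SP-49), where 25.6% passed. For Rec-1 against SP-49 4 of 9 differed (MYC, MAX and MXD3 higher in Rec-1, MXI1 lower), where 28.9% passed. Of the 30 probe sets, 7, 6 and 5 passed in these comparisons, set against 16.8%, 17% and 19.2% of all probe sets. Line differences were thus common on this array, and the members' shares over probe sets, 23.3%, 20% and 16.7%, were near those of all probe sets. The 3 comparisons share arrays.

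Genes that MYC is known to activate fell in Rec-1. There 21 of 33 measured genes of a 38-gene textbook list passed, all lower with GSI, beside 3.62% of all genes lower. Like the other lists here, it was chosen with earlier results of these data known. RCC1, which charges the nuclear transport protein Ran, read 6.91 and 6.87 with GSI and 7.80 and 7.78 with Mock, and fell by 0.90 (adjusted p = 0.00135). SRM, the spermidine synthase, read 7.51 and 8.11 with GSI and 9.13 and 9.28 with Mock, and fell by 1.39 (adjusted p = 0.00139). In both genes every GSI array was below every Mock array. NME1, a nucleoside diphosphate kinase, fell by 0.85 (adjusted p = 0.0019) and PA2G4, a growth regulator linked to ribosome assembly, fell by 0.97 (adjusted p = 0.00267). The median change of the list was -0.64, beside 0.012 over all genes.

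In SP-49, where MYC fell as far, 0 of 33 passed by limma, beside 0.192% of all genes. At an unadjusted p under 0.05 there were 13 of 33, beside 1754 of all 19775 genes. In that line 30 of 33 changes were below 0 and the median was -0.26, beside -0.019 over all genes. In Mino 0 of 33 passed by limma (1 at an unadjusted p under 0.05, beside 969 of all 19775 genes), with a median of 0.02. Of the 33 genes, 6 had a more negative change in Rec-1 than in Mino and 1 more so in Rec-1 than in SP-49 by the test of the difference. Over all 19775 genes these numbers were 172 and 34. The Rec-1 count was 20 to 21 under the other scalings but 6 without Rec-1 Mock replicate 1, 9 without Mock replicate 2, 11 without GSI replicate 2 and 0 with Rec-1 arrays alone, and the SP-49 count reached 7 with an intensity trend and a robust prior. Of 5 T-cell markers, CD3D was also lower with GSI in Rec-1 (-0.63, adjusted p = 0.0253). Rec-1 group means of CD3E (2.10 with GSI, 2.53 with Mock) and CD3G (1.99 and 2.53) were lower too, without passing. In that line 4 of 5 changes of the list were below 0, with a median of -0.43, while CD2 and TRAT1 were below the array's median in every group. Of 5 B-cell markers, MS4A1 (CD20) was higher with GSI in Rec-1 by 0.51 (adjusted p = 0.0400). CD79B, a part of the B-cell receptor, was higher by 1.06 (adjusted p = 0.000792). Group means of PAX5 (8.45 with GSI, 8.87 with Mock) and CD22 (5.31 and 5.58) were lower with GSI, and CD79A (9.54 and 9.07) was higher. None of these passed, and the part of the B-cell markers was not tested. The mean of the T-cell list ran from 1.71 to 2.23 on GSI arrays and 1.54 to 2.74 on Mock arrays, and its part in these counts, like that of the GAPDH difference, was not tested. Of 5 epithelial markers, CDH1 was lower with GSI in SP-49 (-1.73, adjusted p = 0.0207) and the other 4 did not pass. The mean of that list ran from 1.98 to 2.38 on GSI arrays and 2.02 to 2.43 on Mock arrays, and its part in the SP-49 results was not tested.

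Genes that MYC is known to repress showed 2 of 13 measured genes higher with GSI in Rec-1, the cell-cycle inhibitors CDKN1B (p27) and CDKN1A (p21), beside 2.15% of all genes higher. By the test of the difference, 0 of 13 passed for Rec-1 minus Mino and 0 of 13 for Rec-1 minus SP-49. CDKN1B read 7.94 and 7.93 with GSI, against 7.50 and 7.38 with Mock, and rose by 0.50 (adjusted p = 0.0279). CDKN1A read 3.36 and 3.99 with GSI, against 3.00 and 2.74 with Mock, and rose by 0.81 (adjusted p = 0.0378). Both had GSI arrays above Mock arrays. The CDKN1B call ended in 10 of 22 alternatives (adjusted p up to 0.215), among them those without any 1 Rec-1 array or SP-49 Mock array, and the CDKN1A call in 17 (up to 0.242), among them those without any 1 array except Rec-1 GSI replicate 1. Without Rec-1 GSI replicate 2, the change of CDKN1A was 0.49. The median of the list was 0.40 in Rec-1, 0.08 in SP-49 and -0.08 in Mino. In both SP-49 and Mino 0 of 13 passed the threshold by limma. At an unadjusted p under 0.05 there was 1 each, beside 1754 and 969 of all 19775 genes in these lines.

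Targets of MLX pairs with MondoA or ChREBP moved in both directions in Rec-1, with 1 of 8 higher and 2 of 8 lower, beside 2.15% of all genes higher and 3.62% lower. TXNIP, an inhibitor of glucose uptake and the best known MondoA target, read 8.64 and 8.65 with GSI in Rec-1, against 7.97 and 7.96 with Mock. It rose by 0.68 there (adjusted p = 0.00745), and changed by 0.09 in SP-49 (adjusted p = 0.917) and -0.01 in Mino. ARRDC4, its relative and a second MondoA target, changed by -0.07 in Rec-1 and 0.23 in Mino, lines where it was near the array's background. In SP-49 it changed by -0.71 (adjusted p = 0.504), with 3.94 and 2.81 on the GSI arrays, against 4.10 and 4.07 with Mock. The difference between changes of TXNIP did not pass for Rec-1 minus Mino (0.69, adjusted p = 0.0799) or Rec-1 minus SP-49 (0.59, adjusted p = 0.213).

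HK2, the hexokinase that traps glucose in the cell and is also known as a target of MYC, fell in both lines in which MYC fell. It read 4.01 and 3.91 with GSI in Rec-1, against 6.03 and 5.72 with Mock. In SP-49 it read 3.88 and 3.57 with GSI, against 4.89 and 4.90 with Mock. In Mino it read 6.14 and 6.27 with GSI, against 6.13 and 6.09 with Mock, so that GSI arrays were clearly lower in Rec-1 and SP-49 and slightly higher in Mino. The fall was by 1.91 in Rec-1 (adjusted p = 0.000125) and by 1.18 in SP-49 (adjusted p = 0.0121), the only 1 of the 8 genes to pass there. The difference between changes of HK2 passed for Rec-1 minus Mino (-2.01, adjusted p = 0.00267). It did not pass for SP-49 minus Mino (-1.27, adjusted p = 0.109) or Rec-1 minus SP-49 (-0.73, adjusted p = 0.206). With the mean of its probe sets in place of the brightest, HK2 fell by 0.84 in Rec-1 (adjusted p = 0.00127) and by 0.70 in SP-49 (adjusted p = 0.0269), and TXNIP rose by 0.44 in Rec-1 (adjusted p = 0.0471). FASN, the fatty acid synthase, fell by 1.09 in Rec-1 (adjusted p = 0.00441). Its difference between changes passed for Rec-1 minus SP-49 (-1.35, adjusted p = 0.0417) and not for Rec-1 minus Mino (-0.92, adjusted p = 0.109). The median of the 8 genes was -0.20 in Rec-1, -0.36 in SP-49 and 0.02 in Mino. In Rec-1 the TXNIP call ended in 3 of 22 alternatives, among them those without Mock replicate 1 or 2 (adjusted p up to 0.121), and the FASN call in 3, among them those without Mock replicate 2 or with the mean of probe sets, where the change was -0.22 (up to 0.473). In SP-49 the HK2 call ended in 5, among them those without Mock replicate 1, Mock replicate 2 or GSI replicate 2 (up to 0.171).

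Of 19 coactivators and cofactors of MYC, 2 fell in Rec-1, beside 5.77% of all genes that passed there in either direction. They were RUVBL1, an ATPase of chromatin remodelling complexes, which fell by 1.05 (adjusted p = 0.00333), and WDR5, which helps MYC to bind chromatin, which fell by 0.70 (adjusted p = 0.0255). RUVBL1 read 6.68 and 6.51 with GSI, against 7.70 and 7.58 with Mock. Of 22 genes that set the stability of the MYC protein, USP36, an enzyme that removes ubiquitin from MYC, fell by 0.81 in Rec-1 (adjusted p = 0.0366) and the other 21 did not pass. The SIN3 and HDAC corepressors of MXD proteins had 0 of 13 past the threshold, the regulators of MYC transcription 0 of 11, and the other E-box factors of the same fold 0 of 12. The PRC1.6 partners of MGA had 1 of 10, again WDR5. With 0 to 2 genes past the threshold in each list, beside 5.77% of all genes, the counts of calls set none of the 6 lists apart. At an unadjusted limma p under 0.05 in Rec-1 there were 5 of 13 corepressors, 3 of 11 transcription regulators and 2 of 12 other E-box factors. There were also 4 of 19 cofactors, 8 of 22 stability genes and 3 of 10 PRC1.6 partners, beside 3794 of all 19775 genes. In SP-49 and Mino 0 genes of these 6 lists passed by limma. Between 0 and 2 genes of a list had an unadjusted p under 0.05, beside 1754 and 969 of all 19775 genes in these lines. The medians of the 6 lists ran from -0.28 to 0.13 in Rec-1, -0.08 to 0.14 in SP-49 and -0.03 to 0.02 in Mino. The calls of WDR5 and USP36 ended in 6 and 11 of 22 alternatives (adjusted p up to 0.187 and 0.240), both without Rec-1 Mock replicate 1 or GSI replicate 2, and USP36 also without Rec-1 Mock replicate 2 or either SP-49 GSI array.

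**Figure D5:**
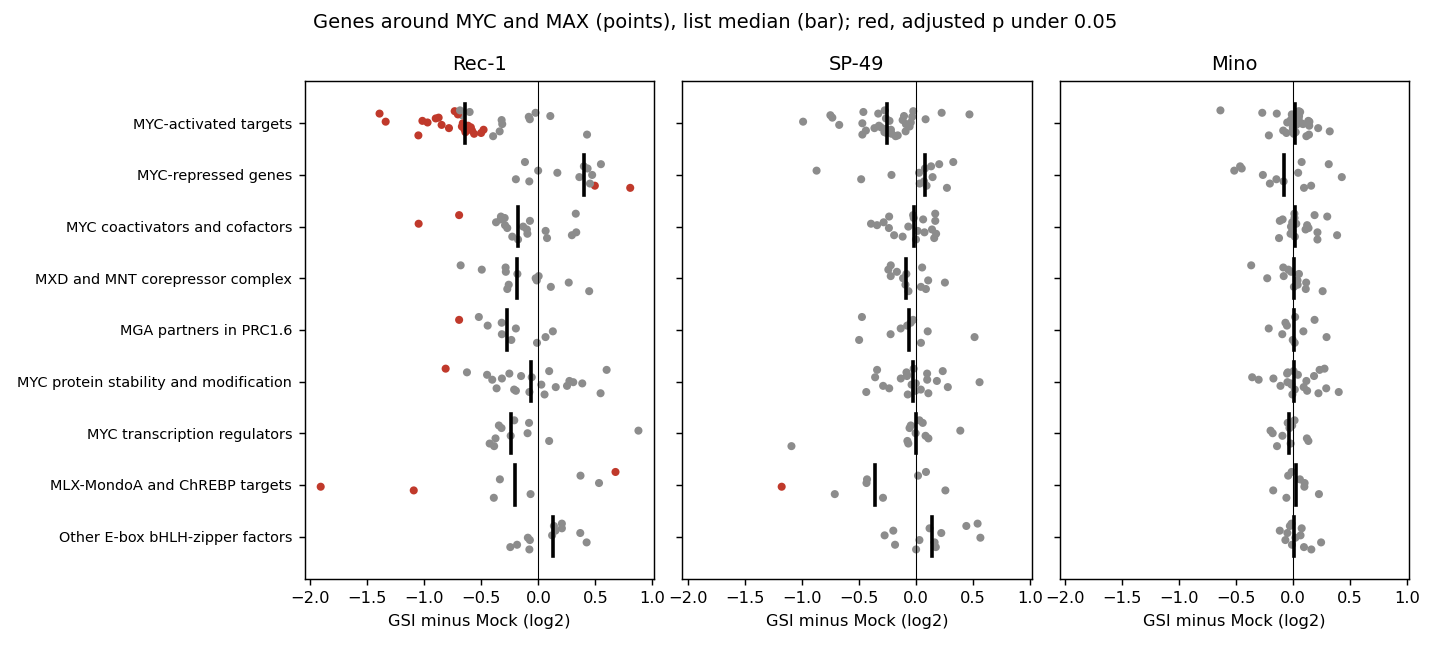
Change with GSI (x axis, GSI minus Mock, log2) of each measured gene (points) in 9 lists of genes around MYC and MAX (rows), with the list median (bar), in each line; red marks an adjusted p under 0.05. In Rec-1 the MYC-activated genes lie to the left, with a median of -0.64 and 21 of 33 past the threshold, while in Mino all list medians lie between -0.08 and 0.02.

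The genes whose pattern was most like that of MYC were found by the root mean square difference between their 6 group means and those of MYC, each centred on its own mean, among 14469 genes above the array's median in at least 1 group. PUS7, a pseudouridine synthase, was nearest at 0.170, with changes of -1.92 in Rec-1, -1.25 in SP-49 and -0.01 in Mino. SLC39A14, a transporter of zinc and other metals, followed at 0.223, with changes of -1.64, -1.11 and 0.10 in the same lines. TAF4B, a subunit of the TFIID complex, was at 0.441, BCAT1, which transfers the amino group of branched-chain amino acids, at 0.444, and ANKLE1, a nuclease, at 0.463. In Rec-1, SP-49 and Mino, TAF4B changed by -1.16, -0.35 and 0.08, BCAT1 by -1.37, -0.90 and 0.07, and ANKLE1 by -0.63, -0.43 and 0.01. The distance takes in the levels of the lines as well as the changes with GSI. The median distance over all ranked genes was 1.55. Within the network MXI1 was nearest to MYC at 0.952 and MXD3 furthest at 1.87, and the values describe 6 group means of 3 lines without a test.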

How the data were processed

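RNA on 12 Affymetrix arrays of 54675 probe sets, 2 in each of 6 groups, was analysed from the deposited log2 values, which the authors normalized with RMA and processed with limma per the submitters' processing notes, with no versions. The range of the values (0.58 to 12.78) was taken to mean base 2. Probe sets were named by the platform annotation. A gene took its probe set with the highest mean among those naming it alone, with no filter on dim genes. In limma 3.58.1 (R 4.3.3; lmFit and eBayes, constant prior), 6 group means were fitted on 12 arrays (degrees of freedom 6 residual, 5.22 prior). Benjamini-Hochberg adjustment ran over all genes, or all probe sets, of a contrast. The 2 arrays per group limit the precision. The pipeline was tested on simulated data.

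All members were named, with up to 4 genes per list, line and direction by adjusted p among those past 0.05, TXNIP and ARRDC4 whatever their p, and the 5 genes most like MYC. Members and lists were chosen with earlier results of these data known. Alternatives covered probe-set choice, dim genes, scaling, prior, arrays fitted, array weights, a replicate block, and leaving out single arrays. List genes without a probe set of their own, and MXD4 and MIR4800 as genes, were not analysed here. Replicate numbers did not pair arrays.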

Additional observations from a re-analysis of the deposited data

Results flagged for a closer look

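The change of MYC differed between lines by a test of the difference itself. GSI minus Mock was -1.53 in Rec-1 and 0.13 in Mino, a difference of -1.67 (adjusted p = 0.0117). Rec-1 and Mino arrays also differed in serum, in their Mock level of MYC (8.35 ± 0.04 and 9.82 ± 0.14) and in the GAPDH control difference (0.37 to 0.59 and 0.25 to 0.39), and the part of each was not tested.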

How the results depend on the processing

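Of 1782 values of members under 22 alternatives, 1751 kept direction and side of the threshold, 15 lost a call, 16 gained one and 0 called values turned sign. Another 98 sign changes were of values past the threshold in neither fit. With only the arrays compared, the Rec-1 count of members was 0, MYC in Rec-1 -1.53 (adjusted p = 0.0805) and its difference Rec-1 minus Mino -1.67 (0.0581). Without 1 array, the count in SP-49 ran from 0 to 1, MYC in SP-49 from -1.58 to -1.53 (up to 0.0885), its difference Rec-1 minus Mino from -1.97 to -1.37 (up to 0.0626) and SP-49 minus Mino from -1.78 to -1.59 (0.00459 to 0.356). The calls of MYC in SP-49 ended without SP-49 Mock replicate 1 or 2 or GSI replicate 2, and those of the Rec-1 minus Mino difference without Mino Mock 2, Mino GSI 2, or Rec-1 Mock 1 or 2. SP-49 minus Mino gained a call with the mean of probe sets (-1.68, adjusted p = 0.0396), quantile normalization (-1.64, 0.0482), an intensity trend and robust prior (-1.68, 6.4e-05), only the arrays compared (-1.68, 0.0135), array weights (-1.68, 0.0105) and both arrays of narrowest signal range left out (-1.66, 0.0351). Leaving out either GSI array of Rec-1 also gave it a call (-1.68, 0.00459). The cause was not tested.

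The replicate numbers did not pair arrays (correlations of deviations 0.094, -0.011 and 0.046 in Rec-1, SP-49 and Mino), and a replicate block left MYC at -1.53 in Rec-1 (adjusted p = 0.00601), -1.55 in SP-49 (0.0380) and -1.67 for Rec-1 minus Mino (0.0423) and changed no member's call. Under the block the Rec-1 adjusted p was 0.0701 for CDKN1B, 0.0835 for CDKN1A and 0.0560 for USP36, so these calls ended. Counts over all genes ran widely. In Rec-1, 1141 genes passed, 21 with only the arrays compared, 426 or 414 without Mock replicate 1 or 2, 738 without GSI replicate 2 and 1997 without GSI replicate 1. In SP-49, 38 passed, with a range of 7 to 208. With 2 arrays per group and levels near background for dim probe sets, small changes could not be detected.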
